A study of Drosophila melanogaster with 16 samples.

Results

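By the coordinates used here, the genes described lie at the centromere ends of the chromosome arms of Drosophila melanogaster, next to or within centric heterochromatin. A gene was a member if it had a coding sequence (CDS), spanned under 50 kb, and started at or past base 21500000 of arm 2L, 22500000 of arm 3L or 21500000 of X, or stood on scaffold 2LHet, 3LHet, 3RHet or XHet. The Het scaffolds are stretches of heterochromatin that the genome build of the files leaves apart from the arms. Of 13892 genes with a CDS, 196 were members: 65 on 2L, 66 on 3L, 28 on X, 3 on 2LHet, 15 on 3LHet, 9 on 3RHet and 10 on XHet. A further 19 genes of the same stretches were left out for a span of 50 kb or more. Position and span chose the members, and no expression value entered the rule.

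The study measured RNA in OSS cells, a line of somatic follicle cells from the fly ovary, after electroporation of 500 pmol of siRNA into a 10 cm plate and 6 days of culture. The siRNA was directed against piwi (siPIWI), against the Paf1 gene (siPAF1; the gene is atms in the files), against both (the double knockdown), or against GFP as a negative control (siGFP). For each of these 4 treatments, strand-specific libraries were made from NUN pellets (called NUN here; the labels do not spell the name out) and from cytoplasm lysates (cyto), in sets labelled OSS_146 and OSS_147, which gives 16 libraries in 8 groups of 2. Nothing in the labels says whether the sets are separate cultures, so each p-value measures only the spread between these libraries.

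Centric heterochromatin is the repeat-rich, densely packed DNA around the centromere. Its histones carry methylation of histone H3 at lysine 9, which HP1 binds. Genes embedded there, such as light (lt) and concertina (cta) on 2L, depend on that environment for normal expression, whereas genes moved next to it from elsewhere are often silenced. In ovarian somatic cells Piwi, guided by piRNAs, silences transposons in the nucleus through the same histone mark. Paf1 is a subunit of a complex that travels with RNA polymerase II during elongation.

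Each value below is a count of reads with a single alignment on the CDS, in the strand that holds the gene's own RNA. These counts came to 2080794 to 4623806 in a NUN library and 663876 to 1759084 in a cyto library. Reads on members made up 1.48% to 1.94% of these counts in NUN libraries and 5.40% to 7.20% in cyto libraries. CPM stands for counts scaled to a library size of 1000000 with TMM factors, fold changes are on the log2 scale with their standard error (SE), and a gene was called at an adjusted p under 0.05 in edgeR's quasi-likelihood test over all genes. The piwi siRNA left piwi at 876 and 592 CPM in siPIWI NUN, against 1060 and 1008 CPM in siGFP NUN, and at 86.4 and 42.6 CPM in siPIWI cyto, against 288 and 308 CPM in siGFP cyto. Neither piwi difference was called (adjusted p = 0.9997 in NUN and 0.303 in cyto). The Paf1 gene atms stood at 26.3 and 18.3 CPM in siPAF1 NUN, against 82.7 and 58.4 CPM in siGFP NUN, which was not called (adjusted p = 0.237). In cyto atms fell to 10.7 and 5.96 CPM in siPAF1, against 167 and 172 CPM in siGFP (adjusted p = 5.87e-05). In the double knockdown piwi had 1073 and 749 CPM in NUN, which overlaps siGFP, and 101.5 and 36.2 CPM in cyto. Neither was called against siGFP (edgeR adjusted p = 0.992 and 0.139). There atms had 34.1 and 19.0 CPM in NUN and 11.7 and 9.64 CPM in cyto (edgeR adjusted p = 0.397 and 1.46e-04). The 9 markers of follicle cells fixed for the check were all detected and summed to 5081 to 6691 CPM in the NUN libraries of the knockdowns, against 5735 to 6340 CPM in siGFP NUN. The 6 germline markers summed to 3.19 to 13.8 CPM in the knockdown libraries and 11.4 to 12.5 CPM in siGFP, and the 5 haemocyte markers to 314 to 459 CPM and 296 to 368 CPM. The muscle markers summed to 16.9 to 55.8 CPM in the knockdowns and 23.2 to 32.1 CPM in siGFP, the neuron markers to 24.2 to 39.3 CPM and 39.1 to 45.9 CPM, and the fat body markers to 2.502 to 10.7 CPM and 2.73 to 4.05 CPM. No marker list had all its genes at 0.

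The borders of the stretches cut through mixed ground. On 2L the outermost member is a histone gene, His4:CG33869, which starts 4421 bases past the border, and the nearest gene outside, His1:CG33834, belongs to the histone genes too. On 3L the border falls between CG43329 outside and CG11404 inside, which starts 41536 bases past it. On X the first member, CG14621, starts 346589 bases past the border, and between DIP1 outside and CG14621 inside lie 345404 bases without a CDS gene. DIP1 is the gene beside flamenco, the piRNA cluster that ovarian somatic cells use against transposons of the gypsy type. No chromatin mark was measured in these libraries, so the label was checked by position and by known heterochromatic genes among the members (lt, cta, vtd, RpL15, spok and su(f)). A later annotation places ARY, a member on 3LHet without a unique count in any library, on the Y chromosome.

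Many members had few or no uniquely aligned reads, and such genes came in runs. Runs elsewhere in the genome were not counted. No library held a unique count for 29 of the 196 members, of which 8 had reads that align at several places, and 42 had 1 to 15 counts over all 16 libraries. The longest run was of 20 neighbouring genes on 3L, CG11404 to CG11370, over 165 kb, in which no gene reached more than 6 counts in any library. On 2L, 10 neighbours from CG41434 to CG6675 reached at most 2 counts, 6 from CG11629 to CG2528 at most 4, and the 10 histone genes of the 2L stretch at most 3. Several of these histone genes have the same coordinates, so the same counts repeat, and each was counted separately among the 29 and the 42. Some of these histone genes, such as His4:CG33869, had 1324 alignments and 0 unique, so unique counts cannot show their level. Enough counts for a test were found for 116 members in NUN (59.2%, against 59.3% of all genes with a CDS) and for 79 in cyto (40.3%, against 41.1%). The share that could be tested was therefore close to that of the genome in both fractions. It was 64.9% on the Het scaffolds (24 of 37) and 57.9% on the arms (92 of 159) in NUN.

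Where members were transcribed, their levels ranged widely. Per kb of CDS, the tested members had a median NUN level of 49.8 CPM per kb, against 30.7 CPM per kb over all tested genes, and the interquartile ranges overlapped (13.4 to 93.9 and 13.9 to 64.3 CPM per kb). The most abundant members in NUN were Df31, a chromatin-binding protein, at 2418 CPM per kb, the translation elongation factor Ef2b at 1538, the ribosomal proteins RpL21 at 1166 and RpL15 at 704, and the vesicle-trafficking GTPase Arf79F at 593 CPM per kb. The most abundant members of the other stretches were CG12576 on X (333 CPM per kb), CG40451 on 3RHet (268), CG12567 on 2LHet (190) and CG17162 on XHet (68.5 CPM per kb). In cyto the order was led by RpL21 (31080 CPM per kb), RpL10 (20990) and RpL5 (16840 CPM per kb). Df31 itself was unsteady: its NUN level was 1205 and 1264 CPM in the double knockdown, 595 and 2943 CPM in siPIWI and 825 and 1292 CPM in siPAF1, against 1370 and 1184 CPM in siGFP. The siPIWI libraries lie on both sides of all the others, and the log2 fold change of 0.47 (SE 0.55, adjusted p = 0.9997) is within that spread.

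After Piwi knockdown no member passed the test in NUN. edgeR called 0 of 116 tested members, against 0.121% of all genes (10 of 8232), and DESeq2's Wald test called 0. No member reached an unadjusted p under 0.05, while 2.17% of all genes did. The siPIWI and siGFP libraries did not overlap for 19 members (16.4%), against 20.5% of all genes. The median log2 fold change of the members was -0.04, against 0.00 for all genes, and 40.5% of members were above 0, against 50.5% of all genes. The largest differences among members with at least 20 counts on average were in Df31 and MED21 (a Mediator subunit, 0.46, SE 0.54) upward and in Ac3 (-0.67, SE 0.40) downward. RpL5, lt, vtd and CG40351 had log2 fold changes of -0.28 (SE 0.19), -0.13 (SE 0.22), -0.04 (SE 0.20) and -0.05 (SE 0.20).

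Paf1 knockdown in NUN likewise left 0 of 116 members called by edgeR, against 0% of all genes, and DESeq2 called 0 members. Of the members, 9 (7.76%) had an unadjusted p under 0.05, 6 of them higher and 3 lower in siPAF1, against 10.2% of all genes. The siPAF1 and siGFP libraries did not overlap for 48 members (41.4%), against 47.2% of all genes. Groups that do not overlap were thus common, and no more so among members. The members' median log2 fold change was 0.13 and 62.9% were above 0, against a median of 0.00 and 49.7% above 0 for all genes. On the Het scaffolds the median was 0.38 and 20 of 24 tested members were above 0, on the arms the median was 0.11 and 53 of 92 were above 0, and the difference between scaffolds and arms was not tested. Without either siGFP library in turn the median of all tested members was 0.05 (without OSS_146) and 0.28 (without OSS_147), so it moved with the choice of control library. The muscle markers had positive values in siPAF1 as well, without a call: all 3 tested were above 0, with a median of 0.81 (lowest adjusted p = 0.541), and the 5 on the list summed to 45.4 and 55.8 CPM in siPAF1 NUN, against 23.2 and 32.1 CPM in siGFP NUN. The haemocyte markers summed to 447 and 424 CPM in siPAF1 NUN, against 296 and 368 CPM in siGFP NUN. Of the 4 haemocyte markers tested, 2 were above 0, with a median of 0.01 and no call. The part of the muscle and haemocyte markers in the members' values was not tested.

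**Figure D1:**
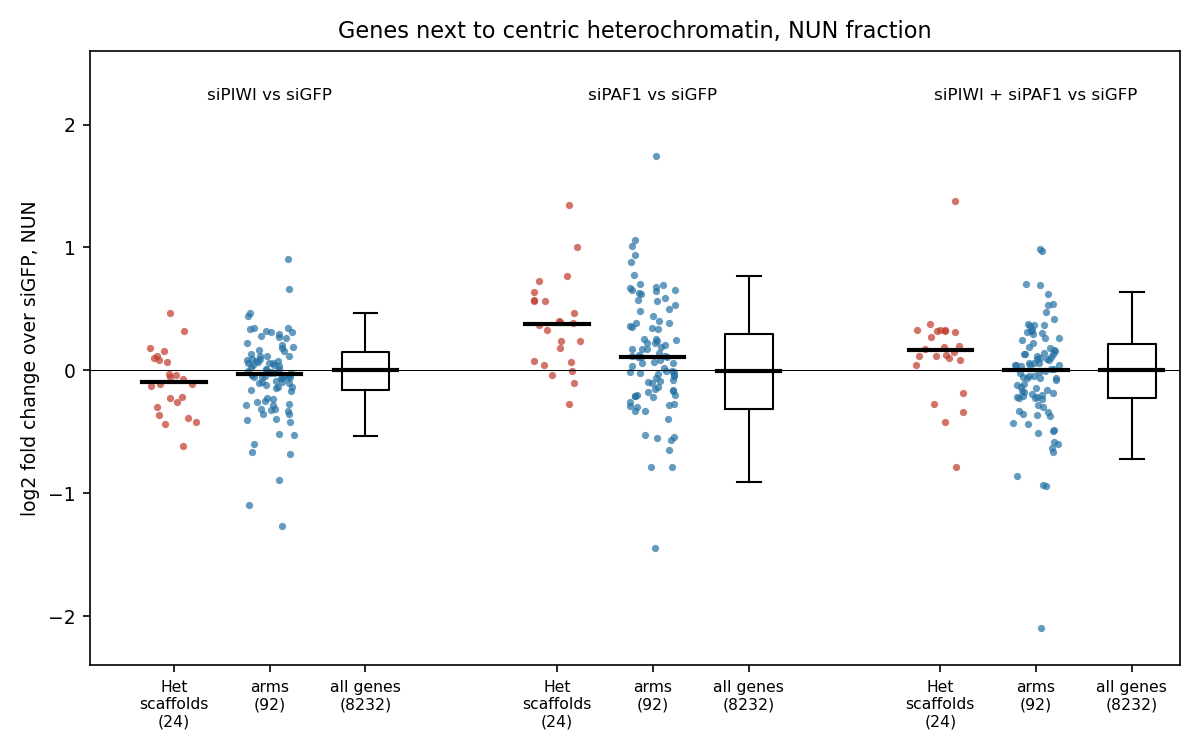
Log2 fold change over siGFP in NUN of the tested members, for siPIWI, siPAF1 and the double knockdown from left to right. Points are members on the Het scaffolds (24) and on the arms (92), bars are medians, and the box gives the median, quartiles and central 90% of all 8232 tested genes. In siPAF1 the median of the Het scaffold members is 0.38 and that of the arm members 0.11, while the median of all genes is 0.00 in each comparison.

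Some members of chromosome biology had positive values in siPAF1, and others did not. CG40351, named Set1 in later annotation and a methyltransferase for histone H3 at lysine 4 (3LHet, plus strand, bases 593049 to 600636 in the files' coordinates), had 428 and 407 CPM in siPAF1 NUN, against 247 and 315 CPM in siGFP NUN. Its groups did not overlap, and the log2 fold change was 0.57 (SE 0.20, adjusted p = 0.416). The cohesin subunit vtd, the fly Rad21 (3LHet, plus strand, bases 2243570 to 2265363), had 429 and 383 CPM in siPAF1, against 284 and 266 CPM in siGFP, a log2 fold change of 0.56 (SE 0.20, adjusted p = 0.424). Both siPAF1 libraries lie above both siGFP libraries for vtd as well, and the same genes had 307 and 335 CPM (CG40351) and 391 and 300 CPM (vtd) in the double knockdown. CkIIalpha, the catalytic subunit of casein kinase II, had 146.6 and 164 CPM in siPAF1, against 127 and 133 CPM in siGFP. The 3' end processing factor su(f) on XHet had 121 and 98.7 CPM in siPAF1, against 149 and 117 CPM in siGFP, and those ranges overlap. Of the 9 members on the list of chromatin and transcription genes, 8 were tested, none was called, and 7 had a positive value, with a median of 0.52. That list also holds CG17374, a fatty acid synthase gene, at 0.47 (SE 0.47). It leaves out other members of this kind, among them Df31 and the chromosomal protein gene Chro. Df31 had 825 and 1292 CPM in siPAF1 NUN, against 1370 and 1184 CPM in siGFP NUN. Chro had 273 and 264 CPM in siPAF1 NUN, against 231 and 320 CPM in siGFP NUN. The ranges overlap for both genes, so the list's count depends on which members it holds.

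Differences at signalling and membrane genes varied in size. The Arf exchange factor step on 2L had 257 and 241 CPM in siPAF1 NUN, against 143 and 195 CPM in siGFP NUN (log2 fold change 0.56, SE 0.25, adjusted p = 0.482). cta, the G protein alpha subunit that drives cell shape change at gastrulation (2L, plus strand, bases 22874533 to 22885077), had 107 and 88.3 CPM in siPAF1, against 52.7 and 71.2 CPM in siGFP (0.65, SE 0.30, adjusted p = 0.511). The groups did not overlap for either gene. fog, the secreted signal upstream of cta, lies on X and had 31.9 and 42.2 CPM in siPAF1, against 18.6 and 33.4 CPM in siGFP, with overlapping ranges. lt, the vacuolar sorting protein Vps41 (2L, plus strand, bases 22817518 to 22833490), had 294 and 251.2 CPM in siPAF1, against 217 and 250.7 CPM in siGFP (0.22, SE 0.22). None of the 9 tested members of the membrane and signalling list was called, and 6 were above 0.

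The metabolic members spanned a wide range of levels, with 75.1 CPM per kb in NUN for SPoCk and 4.94 for spok. spok, a cytochrome P450 of ecdysone synthesis on 3RHet, had 11.4 and 11.5 CPM in siPAF1 NUN, against 1.82 and 6.75 CPM in siGFP NUN. Its log2 fold change of 1.34 (SE 0.51, adjusted p = 0.438) was the highest among members with at least 20 counts on average. The double knockdown gave spok 9.67 and 13.6 CPM, and the same siGFP libraries serve as control for both comparisons. Both siGFP values lie below every siPAF1 and double value. The calcium ATPase SPoCk kept a narrow range, 237 and 220 CPM in siPAF1, against 246 and 261 CPM in siGFP, and the 4 tested members of the metabolic list held no call. Spf45, a splicing factor that entered this list through an older name, had 53.2 and 48.5 CPM in siPAF1, against 21.8 and 40.2 CPM in siGFP.

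For each of the 4 ribosomal protein members, all of the large subunit, the siPAF1 and siGFP ranges overlapped in NUN. RpL15 (3LHet, plus strand, bases 2397790 to 2398981) had 424 and 557 CPM in siPAF1 NUN, against 260 and 518 CPM in siGFP NUN, and RpL21 had 513 and 856 CPM, against 275 and 634 CPM. RpL10 had 334 and 349 CPM in siPAF1, against 273.5 and 359 CPM in siGFP, and RpL5 had 220.4 and 226 CPM, against 204.5 and 261.5 CPM. For RpL15, RpL10 and RpL21 the OSS_147 library was above the OSS_146 library in all 4 treatments. Their log2 fold changes in siPAF1 were 0.33 (SE 0.43), 0.11 (SE 0.35) and 0.59 (SE 0.46), and RpL5 had -0.06 (SE 0.19). No ribosomal protein member was called in any of the 8 knockdown comparisons. The siGFP libraries were also far apart for CG32230 (ND-MLRQ, a complex I subunit), with 84.8 and 93.8 CPM in siPAF1, against 10.0 and 76.9 CPM in siGFP, and for Lamp1, a lysosomal membrane protein, with 615 and 732 CPM, against 174 and 555 CPM.

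Among members with negative values, the adenylyl cyclase gene Ac3 had the lowest in the siPAF1 and double comparisons, and neither was called. Ac3 (2L, plus strand, bases 21632598 to 21647966) had 2.94 and 3.94 CPM in NUN of the double knockdown and 4.26 and 6.55 CPM in NUN of siPAF1, against 15.5 and 14.5 CPM in siGFP NUN, with 11.7 and 6.42 CPM in siPIWI. All knockdown libraries lie below both siGFP libraries. The log2 fold changes were -1.44 (SE 0.42, adjusted p = 0.403) in siPAF1 and -2.10 (SE 0.46, adjusted p = 0.315) in the double knockdown. These rest on 7 to 43 counts per library. Neighbours on X also had low values: Cp110, a centriole protein, had 53.4 and 40.4 CPM in the double knockdown and 55.0 and 43.5 CPM in siPAF1, against 98.1 and 71.9 CPM in siGFP. l(1)G0196 had 170 and 166 CPM in the double knockdown and 222 and 217 CPM in siPAF1, against 354 and 289 CPM in siGFP. The groups of Cp110 and l(1)G0196 did not overlap with siGFP in either comparison.

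**Figure D2:**
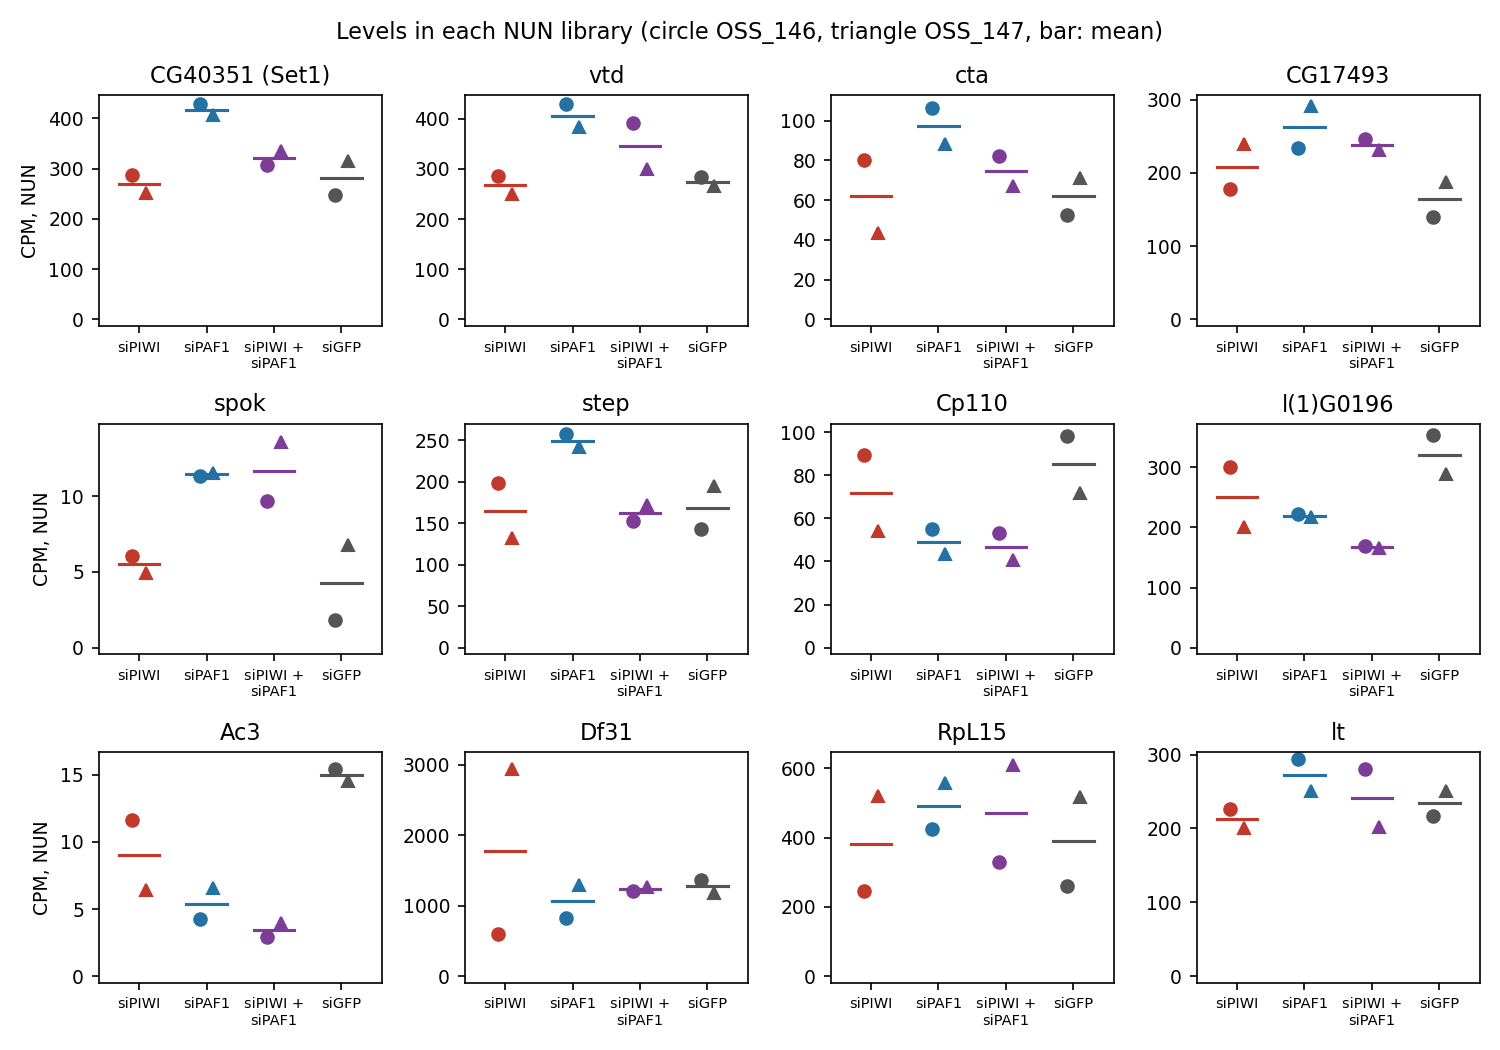
NUN level in CPM of 12 members in each library, in the order siPIWI, siPAF1, double knockdown (siPIWI + siPAF1) and siGFP, with a circle for OSS_146, a triangle for OSS_147 and a bar at the mean. CG40351, vtd, cta, CG17493, spok and step are higher in both siPAF1 libraries than in both siGFP libraries, Cp110, l(1)G0196 and Ac3 are lower, and Df31 shows siPIWI values of 595 and 2943 CPM on either side of the other groups. The siPAF1 and siGFP libraries did not overlap for 41.4% of tested members and 47.2% of all genes.

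The double knockdown in NUN gave 0 members called of 116 by edgeR, against 0.0121% of all genes (1 of 8232), and DESeq2 called 0. Unadjusted p-values under 0.05 were found for 10 members (8.62%), 3 higher and 7 lower, against 5.89% of all genes. The members' median was 0.04 and 56.0% were above 0, against a median of 0.00 and 50.3% for all genes. That median was -0.14 without the siGFP library of OSS_146 and 0.17 without that of OSS_147, so its direction hung on 1 control library; it was also -0.14 without the double knockdown library of OSS_147. Among members with at least 20 counts on average, the lowest value after Ac3 belonged to l(1)G0196 (-0.94, SE 0.23, adjusted p = 0.462), followed by Cp110 (-0.86, SE 0.30), CG2225 (-0.63, SE 0.21) and CG42748 (-0.60, SE 0.21). CG2225 had 128 and 129 CPM in the double knockdown, against 201 and 197 CPM in siGFP, and CG42748 199 and 230 CPM, against 323 and 328 CPM. The groups of both genes are apart, as they were for 33 members (28.4%) and 31.3% of all genes in this comparison. CG17493 on 2L, with 246 and 231 CPM in the double knockdown and 234 and 291 CPM in siPAF1, against 140 and 188 CPM in siGFP, was among the highest (0.54 and 0.68, SE 0.23 each).

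Set against each single knockdown, the double knockdown moved no member past the threshold either. Against siPIWI, edgeR called 0 members and 0% of all genes, DESeq2 called 0 members, 6 members (5.17%) had an unadjusted p under 0.05 against 3.61% of all genes, and the median was 0.03. Against siPAF1, edgeR called 0 members and 0% of all genes, DESeq2 called 0 members, and 1 member (0.862%) had an unadjusted p under 0.05 against 2.81% of all genes. The members' median against siPAF1 was -0.17, with 29 of 116 above 0, while all genes had a median of 0.00 and 49.5% above 0. All 8 tested members of the chromatin and transcription list and all 9 tested members on XHet were below 0 in that comparison. The siPAF1 libraries are shared with the comparison of siPAF1 with siGFP, in which the members' median was 0.13.

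In cyto, again no member was called in any knockdown. For siPIWI, edgeR called 0 of 79 members and 0% of all genes, DESeq2 called 0 members, and 11 members (13.9%) had an unadjusted p under 0.05, against 15.1% of all genes. For siPAF1, edgeR called 0 members, against 0.105% of all genes, DESeq2 called 2 (CG41128 and Cp110), and 10 members (12.7%) had an unadjusted p under 0.05, against 9.68% of all genes. For the double knockdown, edgeR called 0 members, against 0.0175% of all genes, DESeq2 called 1 (CG40485), and 13 members (16.5%) had an unadjusted p under 0.05, against 11.3% of all genes. The members' medians were 0.25, -0.25 and -0.09 in siPIWI, siPAF1 and the double knockdown, beside 0.18, 0.04 and 0.11 for all genes. In the same order, the libraries did not overlap with siGFP for 41.8%, 45.6% and 44.3% of members. Over all genes these shares were 41.7%, 49.6% and 44.6%. Of 6 tested follicle markers, 5, 4 and 4 were above 0 in siPIWI, siPAF1 and the double knockdown, with medians of 1.40, 0.12 and 0.53. The follicle markers on the list summed to 547 and 141 CPM in siPIWI cyto, on either side of 292 and 198 CPM in siGFP cyto. The sums were 204 and 165 CPM in siPAF1 cyto and 306 and 169 CPM in cyto of the double knockdown. The only tested muscle marker had 2.68, 4.40 and 3.73, and was not called (adjusted p = 0.313, 0.12 and 0.223). The 5 muscle markers summed to 5.2 and 10.3 CPM in siPIWI cyto, 16.4 and 18.9 CPM in siPAF1 cyto and 13.4 and 8.44 CPM in cyto of the double knockdown, against 1.37 and 3.9 CPM in siGFP cyto. The part of these markers in the members' values was not tested.

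The nearest to a call was Cp110 after Paf1 knockdown. It had 12 and 10.9 CPM in siPAF1 cyto, against 57.4 and 42.9 CPM in siGFP cyto, a log2 fold change of -2.11 (SE 0.47, adjusted p = 0.0818). The double knockdown gave 13.8 and 20.5 CPM (-1.59, SE 0.46, adjusted p = 0.213), and siPIWI gave 31.8 and 30.8 CPM. All knockdown libraries lie below both siGFP libraries, as the siPAF1 and double knockdown libraries do in NUN. CG41128 on 3RHet had 116 and 103 CPM in siPAF1 cyto, against 586 and 243 CPM in siGFP cyto (-1.91, SE 0.53, adjusted p = 0.204), and its siGFP libraries are far apart. CG40485 on X had 281 and 524 CPM in siPIWI cyto, 672 and 558 CPM in siPAF1 cyto and 245 and 504 CPM in cyto of the double knockdown, against 1259 and 1151 CPM in siGFP cyto. The log2 fold changes were -1.59, -0.97 and -1.69 (SE 0.48, 0.47 and 0.48), and every knockdown library is below both siGFP libraries. CG1416 on 2L ran the other way, with 60.4 and 112 CPM in siPIWI, 80.2 and 70.6 CPM in siPAF1 and 95.2 and 50.6 CPM after both siRNAs, against 26.0 and 23.4 CPM in siGFP. Its log2 fold changes were 1.78, 1.61 and 1.58 (SE 0.48 each, adjusted p = 0.303, 0.249 and 0.247), and the 3 comparisons share the siGFP libraries. In NUN CG1416 had 155 and 176 CPM in siPIWI, against 160 and 107 CPM in siGFP, with overlapping ranges.

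The clearest measured difference among members was between the fractions. In siGFP cells, 76 of 109 tested members (69.7%) were called between NUN and cyto, against 66.9% of all genes. Of these, 38 (34.9% of tested members) were higher in NUN, against 36.6% of all genes, and 38 (34.9%) were lower in NUN, against 30.3% of all genes. The members' share was thus near the background in both directions. In this comparison CPM is on a scale common to both fractions, so its levels differ from those given above within a fraction. That scale comes from TMM factors (0.374 to 1.83), which take most genes as equal, while 66.9% of genes were called here. Higher and lower in NUN are therefore relative to this scaling and not absolute amounts of RNA.

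The 4 ribosomal protein members were all called lower in NUN than in cyto. RpL5 had 120 and 151 CPM in NUN, against 43750 and 30020 CPM in cyto, a log2 difference of -8.09 (SE 0.57, adjusted p = 1.33e-10). RpL10 and RpL21 had -7.40 (SE 0.62) and -6.99 (SE 0.68). CG11137, the gene of the membrane protein complex subunit EMC4, was the lowest member, with 9.61 and 13.0 CPM in NUN, against 7382 and 3695 CPM in cyto (-8.92, SE 0.61). CG40228 had 4.54 and 12.3 CPM in NUN, against 3948 and 2934 CPM in cyto (-8.65, SE 0.65). Ucrh, the hinge subunit of complex III, had 9.07 and 32.5 CPM in NUN, against 1968 and 1327 CPM in cyto. Ef2b was lower in NUN by a log2 difference of -1.60 (SE 0.44), CkIIalpha by -1.35 (SE 0.42) and the piRNA pathway gene mael by -1.34 (SE 0.36), all called. mael had 22.4 and 28.2 CPM in NUN, against 75.6 and 53.5 CPM in cyto.

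The members higher in NUN included longer signalling and regulatory genes. CG14619, the ubiquitin protease Usp2, had 113 and 242 CPM in NUN, against 2.36 and 8.92 CPM in cyto (log2 difference 4.95, SE 0.77, adjusted p = 5.50e-06). The zinc finger gene jim had 127 and 186 CPM in NUN, against 9.45 and 4.46 CPM in cyto (4.50, SE 0.80), and step had 83.8 and 112 CPM, against 0 and 11.2 CPM (4.09, SE 0.61). CG40351 (Set1) had 145 and 181 CPM in NUN, against 63.8 and 66.9 CPM in cyto (1.32, SE 0.36, adjusted p = 0.0023), and the chromosomal protein gene Chro had 136 and 185 CPM, against 54.4 and 58.0 CPM (1.51, SE 0.42). lt was higher by 0.84 (SE 0.36, adjusted p = 0.0412), while vtd at -0.78 (SE 0.39) and cta at 0.07 (SE 0.46) were not called. With counts over the whole locus, vtd was higher in NUN by 0.89 (adjusted p = 0.0134). Ac3 and tio, a zinc finger gene, had 77 and 69 counts in NUN and 0 in cyto, at least 2.52-fold and 2.26-fold higher in NUN by a floor of 3 counts over the group. S6kII, a kinase of the RSK family, had 770 counts in NUN and 3 in cyto, a ratio of 25.2 (95% counting interval 8.59 to 122), and fog had 140 and 2 counts, a ratio of 6.87 (1.87 to 57.3). These intervals and floors cover counting error only.

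Coding length went with the direction, among members as among all genes. The median CDS was 2156 bases in members higher in NUN, 729 bases in those lower in NUN and 1266 bases in those not called. Over all genes the medians were 2373, 894 and 1344 bases. On the arms 33 of 84 tested members were higher and 28 lower, and on the Het scaffolds 5 of 25 were higher and 10 lower. The stretches differed: X had 12 higher and 3 lower of 19, 3L 12 higher and 17 lower of 34, and 3LHet 1 higher and 6 lower of 10, and these differences between stretches were not tested.

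**Figure D3:**
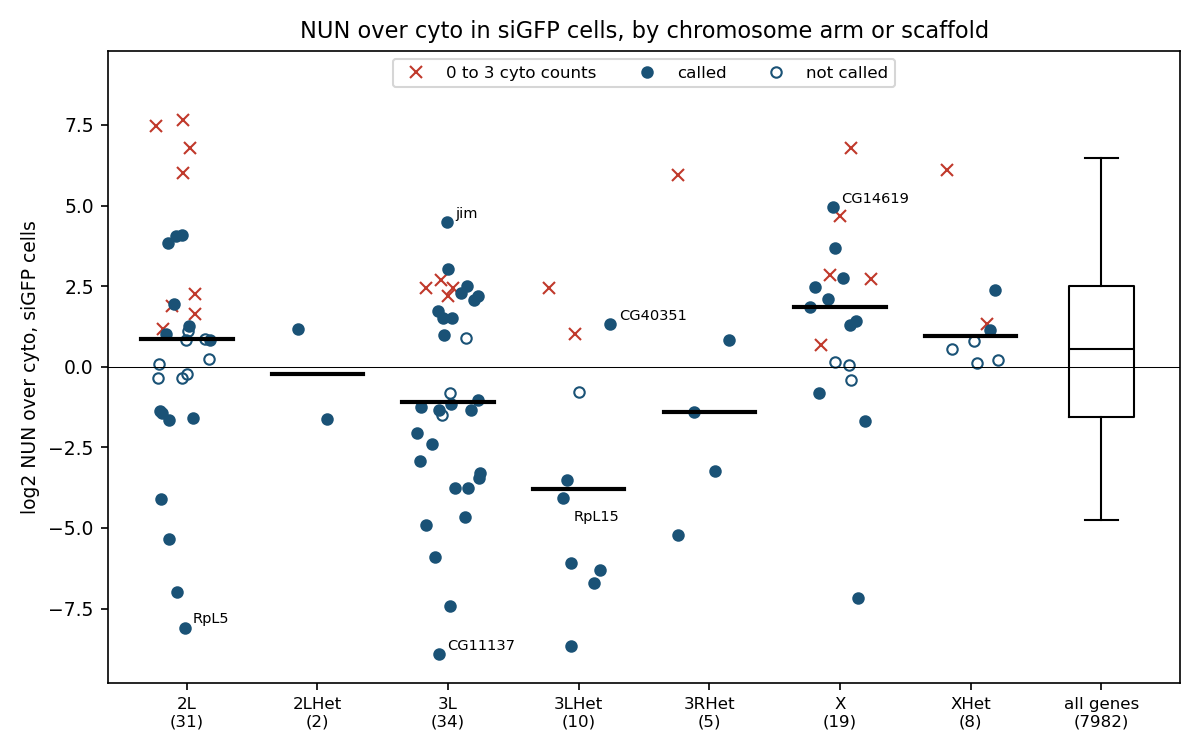
Log2 NUN over cyto in siGFP cells for 109 tested members by arm or scaffold, with filled circles for called members, open circles for members not called, red crosses for members with 0 to 3 cyto counts, whose fitted value is no bound, and bars at medians. The box gives the median, quartiles and central 90% of 7982 genes. The lowest member is CG11137 at -8.92, and the medians are 1.86 on X and -3.78 on 3LHet.

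Some members could not be told apart by their reads. Of 175 members with any alignment on the CDS, 16 (9.14%) had under 90% of alignments at a single place, against 2.54% of all genes; on the Het scaffolds it was 5 of 35 (14.3%). Among the His4 genes of 2L, 4 had 0 unique counts among 1324 alignments each. These 4 have the same coordinates (bases 21504421 to 21504947), so their equal alignment numbers in all 16 libraries were fixed by the annotation. CG41284 and CG42598 on 3LHet also have the same coordinates (bases 1645809 to 1652912). Each of these genes was counted separately in the shares above, so those shares hold the same bases more than once. CG40005 had 0 unique of 1526 alignments, and in 16 of 16 libraries its number equalled the alignments that cta shared with other places. cta was thus measured from 56.7% of its alignments, the unique ones. CG40472 and CG40002 shared theirs in the same way in 16 of 16 libraries, with 1.54% and 2.96% unique of 12305 and 12485 alignments. mRpS5, a mitochondrial ribosomal protein gene and the last gene of 3L, was 23.4% unique, CG33217 48.1%, and CG41454 had 0 unique of 1121. Changes in copies of this kind are uncertain. With all alignments counted, edgeR again called 0 members in each of the 8 knockdown comparisons.

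**Figure D4:**
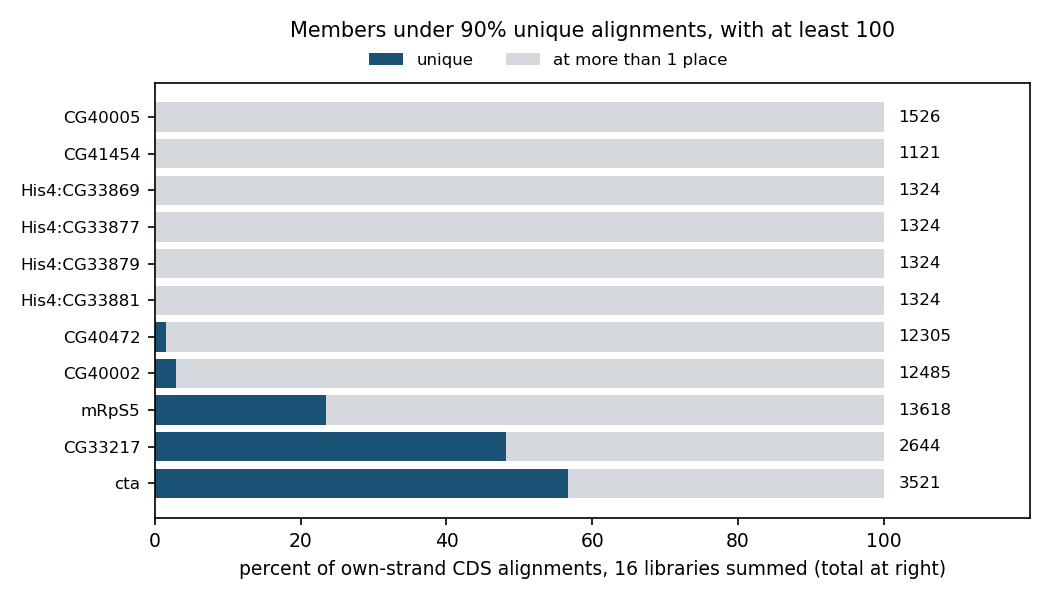
Share of own-strand CDS alignments that are unique (dark) or at more than 1 place (light) for the members under 90% unique with at least 100 alignments, summed over 16 libraries with the total at the right. CG40005, CG41454 and 4 His4 genes have none unique, and cta has 56.7% unique.

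RNA from the strand opposite to the gene was measured as well. In NUN the opposite strand gave 3.72% to 5.63% of the members' CDS counts, against 4.70% to 6.79% over all genes, and in cyto 0.0679% to 0.159%, against 0.359% to 0.761%. A large share of it came from 1 gene. Ac3 had 6772 opposite-strand counts in NUN and 201 on its own strand, so 97.1% were opposite, and without Ac3 the members' share was 2.248% to 3.44%. In counts per 1000000 own-strand CDS counts, the opposite strand of Ac3 had 464 and 304 in siPIWI, 221 and 244 in siPAF1 and 219 and 242 in the double knockdown, against 224 and 241 in siGFP. The siPIWI libraries are above the other 6, and the test of siPIWI against siGFP was not called (log2 fold change 0.70, adjusted p = 0.939). In siPAF1 and the double knockdown the opposite strand had log2 fold changes of 0.03 and -0.04, beside -1.44 and -2.10 on the gene's own strand. In cyto the opposite strand of Ac3 had 28.6 and 16.6 per 1000000 in siPIWI, 10.85 and 14.8 in siPAF1 and 18.2 and 11.5 in the double knockdown, against 3.53 and 5.82 in siGFP. Every knockdown library in cyto is above both siGFP libraries, on 11 to 33 counts against 4 and 5, and no comparison was called (log2 fold changes 1.65, 1.06 and 1.14, adjusted p = 0.237, 0.494 and 0.411). No gene model of the files overlaps Ac3 on the opposite strand, and the nearest one, Df31, lies 2668 bases away. Among 115 members with at least 100 counts in NUN on both strands together, 7 had over 80% on the opposite strand, such as CG12446 (97.6%), CG31619 (89.95%), the chitinase gene Cht3 (88.8%) and tilB (83.1%). The nearest gene model on the opposite strand lies 92 bases from tilB, 1952 from CG31619, 7212 from Cht3 and 54716 from CG12446. A gene model overlaps the opposite strand of 22 of the 196 members. The counts of 7 and 22 were made among members only, so they do not set members apart from other genes.

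**Figure D5:**
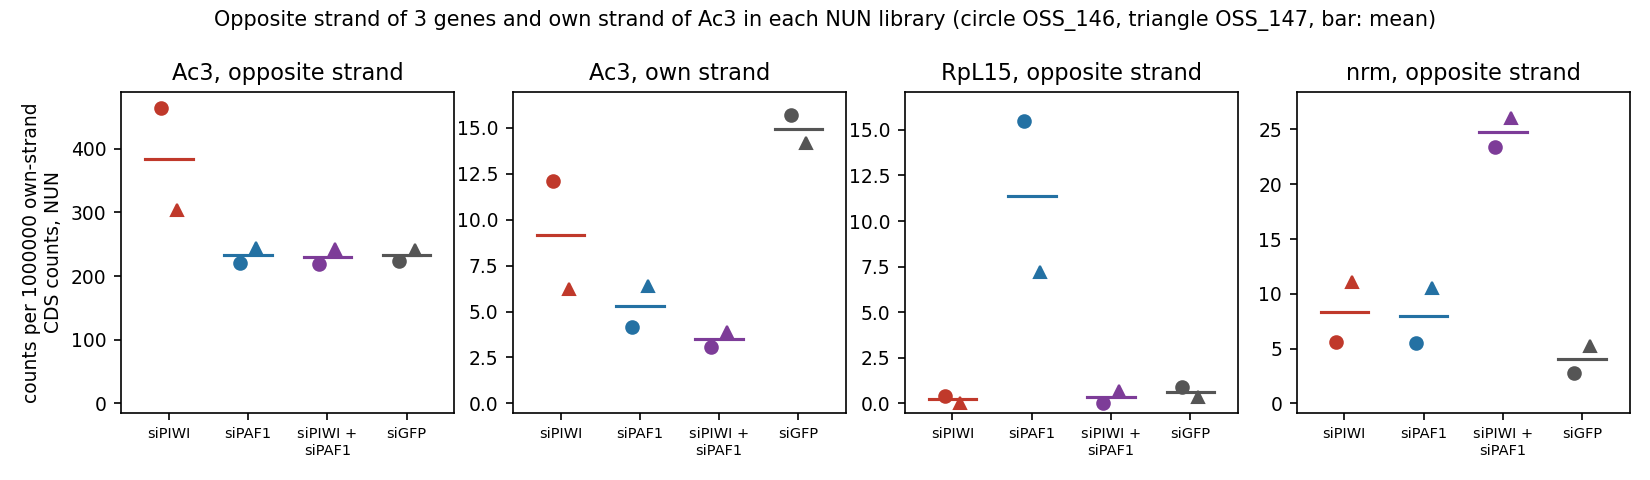
Counts per 1000000 own-strand CDS counts in each NUN library, in the order siPIWI, siPAF1, double knockdown and siGFP, for the opposite strand of Ac3, the own strand of Ac3, and the opposite strands of RpL15 and nrm (circle OSS_146, triangle OSS_147, bar at the mean). Opposite-strand RNA at Ac3 lies between 219 and 464 in all libraries, RpL15 has 15.5 and 7.18 in siPAF1 against 0.922 and 0.330 in siGFP, and nrm has 23.4 and 26.1 in the double knockdown against 2.77 and 5.27 in siGFP.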

How the data were processed

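Per the labels' protocols, libraries were strand-specific; per the submitters' processing notes, reads were aligned with Bowtie (version and build not given in the sources used here). The deposited files hold raw counts by the authors, per transcript model, region and strand. The authors also deposited RPM values, not used here. Each gene was read from its longest CDS model. In a later annotation, used for names and for the chromosome of ARY, 155 member names matched and 40 matched an older name.

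With R 4.3.3, edgeR 4.0.16 (TMM scaling after filterByExpr, robust quasi-likelihood test, 1 mean per group, Benjamini-Hochberg adjustment over all genes) was fitted to the 8 NUN libraries (8232 genes), the 8 cyto libraries (5714) and all 16 (7982), and tested on simulated data. DESeq2 1.42.0 was an alternative. Each comparison set 2 libraries against 2. Members and lists were chosen with earlier results of these data known. Named were piwi and atms, called members, extreme changes (mean count at least 20), the most abundant members (per list, of all, per stretch) and border genes; CG12446, CG31619, tilB, Lamp1, the multi-copy genes and others were chosen after their values were seen. Opposite-strand tests were added after seeing the data.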

Additional observations from a re-analysis of the deposited data

Results flagged for a closer look

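The opposite strand was outside the comparisons of the report, and its tests were chosen after the data were seen. RNA was found above siGFP there at RpL15 and nrm. At RpL15 the opposite strand had 45 and 28 counts in siPAF1 NUN, against 2 and 1 in siGFP NUN, with 0 to 2 in the siPIWI and double knockdown libraries, and edgeR gave a log2 fold change of 4.20 (adjusted p = 0.0141 over 3666 genes), higher in both siPAF1 libraries than in both siGFP libraries. On its own strand RpL15 had 1194 and 2127 counts in siPAF1, against 573 and 1535 in siGFP, so the opposite strand was 3.63% and 1.30% of the total in siPAF1. At nrm, an adhesion protein gene of 3L, the opposite strand had 53 and 74 counts in the double knockdown, 26 and 23 in siPIWI and 16 and 41 in siPAF1, against 6 and 16 in siGFP, and the log2 fold change of the double knockdown was 2.54 (edgeR adjusted p = 0.0184). The own strand of nrm had 70 and 118 counts in the double knockdown and 72 and 134 in siGFP. Of 41 members tested, edgeR called 0, 1 and 1 on the opposite strand in siPIWI, siPAF1 and the double knockdown, beside 46, 48 and 25 of all 3666 genes. No cause was tested.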

How the results depend on the processing

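The 0 members called in the 5 NUN comparisons stayed at 0 under every alternative run except the fit without a count filter, which called 2 in siPAF1 (CG32230 and Lamp1) and 2 in the double knockdown against siGFP (Ac3 and l(1)G0196). In cyto, leaving out 1 library gave 0 to 3 in siPIWI (2, CG1416 and CG40002, without siPIWI of OSS_146; 3, CG40485, S6kII and jim, without siPIWI of OSS_147) and 0 elsewhere. For siPAF1 in cyto, DESeq2's Wald test called 2, no count filter 2, the replicate block 3 and the compared groups alone 3; for the double knockdown in cyto, these gave 1, 0, 1 and 1. OSS_146 and OSS_147 do not establish pairs: changes between sets correlated at -0.31 to 0.65 between NUN groups and -0.17 to 0.57 between cyto groups. The replicate block changed no other count by over 1.5 times. In siGFP NUN against cyto, 76 calls became 57 to 69 without 1 library, 15 on the Het scaffolds alone, 43 with arm borders moved 500 kb, and 74 to 81 otherwise. Counts over the whole locus, whose window differed between libraries for 125 members by its start, turned the direction of 17 members there: Df31 (-1.80), Lamp1 (-1.56), Cp110 (0.056), CG42748 (-0.35), CG12576 (-0.061), CG14614 (-0.45), CG14621 (-1.89), CG17159 (-0.78), CG17162 (-0.79), CG17598 (-1.56), CG17698 (0.65), CG1832 (-0.57), CG34031 (0.70), CG6838 (-0.38), CG7369 (-1.15), alpha-Cat (0.82) and vtd (0.89); the cause was not tested.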
